A study of Homo sapiens with 12 samples.

Results

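HLA class I antigen presentation was followed here through 9 genes: the heavy chains HLA-B, HLA-C, HLA-E and HLA-F, the light chain B2M, the peptide transporter subunits TAP1 and TAP2, and the immunoproteasome subunits PSMB8 and PSMB9. Every probe set whose deposited gene symbol names one of them was taken, whatever its values, which gave 27 of the 54613 probe sets on the array. Of these, 20 carried a single symbol: 1 for HLA-B, 3 for HLA-C, 3 for HLA-E, 3 for HLA-F, 3 for B2M, 1 for TAP1, 4 for TAP2, 1 for PSMB8 and 1 for PSMB9. The other 7 are shared. Of the shared ones, 6 list HLA-B and HLA-C together with MICA, MICB and a clone-based locus (one of them FAM20B too), and 216517_at lists HLA-C with immunoglobulin kappa genes. MICA and MICB have no probe set of their own among those with 1 symbol, so a change in a shared probe set cannot be assigned to a gene.

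The cells were Ect1, a human ectocervical epithelial line carrying papillomavirus oncogenes, kept as confluent monolayers in serum-free keratinocyte medium with EGF, bovine pituitary extract and calcium. For 10 h they received 10% pooled human seminal plasma (4 arrays), 5 ng/ml of recombinant TGFB3 (4 arrays), a cytokine of the transforming growth factor beta family, or fresh medium alone as control (4 arrays). Each array read a biological replicate pooled from 4 wells, so all 12 arrays describe a single cell line at a single time, and their number limits the precision. The labels name no batch or scan day.

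Class I molecules show peptides from inside the cell to CD8 T cells and natural killer cells. The proteasome cuts proteins into peptides, TAP1 and TAP2 carry them into the endoplasmic reticulum, and there they are loaded onto a heavy chain paired with B2M. Interferons raise most genes of the pathway through transcription factors that bind interferon-stimulated response elements (ISRE) and gamma-activated sites (GAS), while HLA heavy chain promoters also hold sites for NF-kappaB. Epithelial cells are known to express the pathway at rest.

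Of the 9 genes, 8 lie on chromosome 6 and B2M lies on chromosome 15 (GRCh38.p14, NCBI RefSeq). TAP2, PSMB8, TAP1 and PSMB9 are neighbours, and the first TAP1 start lies 488 bases from the PSMB9 start on the opposite strand. RefSeq promoter windows of 300 bases, from 250 before to 50 after a start, were at hand for 8 of the 9 genes (10 windows, HLA-E being named only). The 6 windows below are shown because they hold, or lack, letters of the interferon and NF-kappaB type sites in the genes whose values follow. Each reads 5′ to 3′ on the gene's own strand. Capitals mark matches on either strand to the ISRE core (GAAA, 2 bases of any kind, GAAA), the GAS core (TTC, 3 bases of any kind, GAA) or an NF-kappaB type site (GGGGA, 2 bases of any kind, CCC), and overlapping matches run together.
HLA-B chr6:31357130-31357429 (minus strand): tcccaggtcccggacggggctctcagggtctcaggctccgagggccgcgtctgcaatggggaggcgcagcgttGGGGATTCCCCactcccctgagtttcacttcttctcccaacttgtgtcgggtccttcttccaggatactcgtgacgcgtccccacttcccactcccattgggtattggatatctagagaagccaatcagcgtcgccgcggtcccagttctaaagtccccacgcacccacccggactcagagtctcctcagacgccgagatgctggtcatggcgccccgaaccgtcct
HLA-C chr6:31272043-31272342 (minus strand): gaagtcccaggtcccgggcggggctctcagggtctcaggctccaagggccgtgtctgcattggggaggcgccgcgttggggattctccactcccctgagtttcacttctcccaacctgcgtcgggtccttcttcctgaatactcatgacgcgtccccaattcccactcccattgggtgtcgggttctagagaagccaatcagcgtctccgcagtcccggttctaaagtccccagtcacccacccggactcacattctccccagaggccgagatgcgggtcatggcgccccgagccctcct
B2M chr15:44711267-44711566 (plus strand): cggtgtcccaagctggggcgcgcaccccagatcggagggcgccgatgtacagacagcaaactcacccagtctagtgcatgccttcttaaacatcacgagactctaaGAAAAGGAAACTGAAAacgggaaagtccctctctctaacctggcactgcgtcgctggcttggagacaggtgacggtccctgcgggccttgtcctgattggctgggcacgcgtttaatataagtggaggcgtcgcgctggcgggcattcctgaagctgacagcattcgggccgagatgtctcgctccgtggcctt
TAP1 start 1 chr6:32853655-32853954 (minus strand): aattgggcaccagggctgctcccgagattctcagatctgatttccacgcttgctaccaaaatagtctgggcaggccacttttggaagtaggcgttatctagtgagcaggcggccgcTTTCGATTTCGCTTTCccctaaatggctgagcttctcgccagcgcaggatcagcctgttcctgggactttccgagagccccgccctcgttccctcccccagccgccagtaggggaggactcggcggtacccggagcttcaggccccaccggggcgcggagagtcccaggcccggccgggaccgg
TAP2 chr6:32838690-32838989 (minus strand): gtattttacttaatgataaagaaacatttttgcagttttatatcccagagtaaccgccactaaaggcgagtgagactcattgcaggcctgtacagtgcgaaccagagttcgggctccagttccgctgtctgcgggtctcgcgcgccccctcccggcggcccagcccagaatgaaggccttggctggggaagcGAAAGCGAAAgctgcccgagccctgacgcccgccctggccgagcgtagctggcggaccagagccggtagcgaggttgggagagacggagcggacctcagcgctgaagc
PSMB8 start 2 chr6:32843998-32844297 (minus strand): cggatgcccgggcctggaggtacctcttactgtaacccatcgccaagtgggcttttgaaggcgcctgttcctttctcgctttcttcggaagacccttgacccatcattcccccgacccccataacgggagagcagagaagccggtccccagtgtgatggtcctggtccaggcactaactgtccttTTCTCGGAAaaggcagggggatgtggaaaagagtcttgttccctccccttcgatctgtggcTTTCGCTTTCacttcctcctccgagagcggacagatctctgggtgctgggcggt

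Positions count from the start, whose base is 1, with no base 0. The B2M window holds 2 overlapping ISRE cores between -144 and -129, and the TAP1 start 1 window 2 between -134 and -119. TAP2 has 1 at -58 to -49, PSMB8 start 2 has 1 at -4 to 6 with a GAS core at -65 to -57. Of the windows not printed, HLA-F has 1 ISRE core at -156 to -147 and TAP1 start 2 has a GAS core at -189 to -181. HLA-B holds an NF-kappaB type match that reads on both strands, between -177 and -167, and HLA-C none of the 3 motifs as spelled here. The windows of PSMB9 and of PSMB8 start 1 also lack all 3. Among 35116 RefSeq promoter windows of the same length, 3.57% hold the ISRE core, 7.66% the GAS core and 2.85% the NF-kappaB type letters. The CCAAT box and the cyclic AMP element core TGACG, also searched on both strands, each matched in 6 of the 10 windows, against 34.6% and 24.6% of all windows. A match describes letters only, and binding was not measured. The spellings are strict, so a window without a match can still hold such a site in other letters.

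Signals here are linear array intensities, which order arrays within a probe set but not one probe set against another. Tests ran on log2 signals with a floor of 16. Differences come from limma on all 12 arrays, and a call is an adjusted p under 0.05 over all 54613 probe sets. Replicates 3 and 4 of the seminal plasma group were unlike the other 10 arrays. Their median signals over all probe sets were 178 and 131, against 88.1 to 107 on the others, and 8.01% and 12.8% of their values lay under 16, against 16.3% to 20.2%. Differences of seminal plasma from control are therefore given with and without both. All 12 squamous epithelial markers averaged 100 or more. Of 14 measured leukocyte markers, 8 averaged under 100 and NKG7 and TYROBP lay under 16 on at least 50% of the arrays. The others averaged 100 or more. Among them CD14 had means of 424 with seminal plasma, 184 with TGFB3 and 688 in control, and CSF1R 194, 563 and 334. CSF1R was called lower with seminal plasma than with TGFB3 (limma adjusted p 0.0234), where 0.752% of all genes were called lower. Without replicates 3 and 4, CD14 was called lower with TGFB3 than in control (limma adjusted p 0.00642), as were 47 of 19682 genes.

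With seminal plasma, the 27 probe sets leaned downward, but few were called. Against control, 2 were called lower and 0 higher (limma, adjusted p), both of them shared probe sets, and 0 of the 20 with a single symbol were called. Over the whole array, 2.94% of probe sets were called, 1.21% lower and 1.74% higher. At an unadjusted limma p under 0.05 there were 10 lower and 1 higher of 27, against 10.2% lower and 14.6% higher over all probe sets. The groups did not overlap for 5 lower and 1 higher of 27, against 6.17% and 7.96% of all probe sets. The log2 difference was below 0 for 21 of 27, against 20719 of all 54613 probe sets. The members' median was -0.66, while the median of all probe sets was 0.20. Without seminal plasma replicates 3 and 4, 0 of 27 were called (0.403% of all probe sets were then called lower). In that fit 19 of 27 were below 0, against 27826 of all 54613. The members' median was then -0.15 against 0.00 for all. In cultures measured in bulk, fewer expressing cells and less RNA per cell cannot be told apart.

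**Figure D1:**
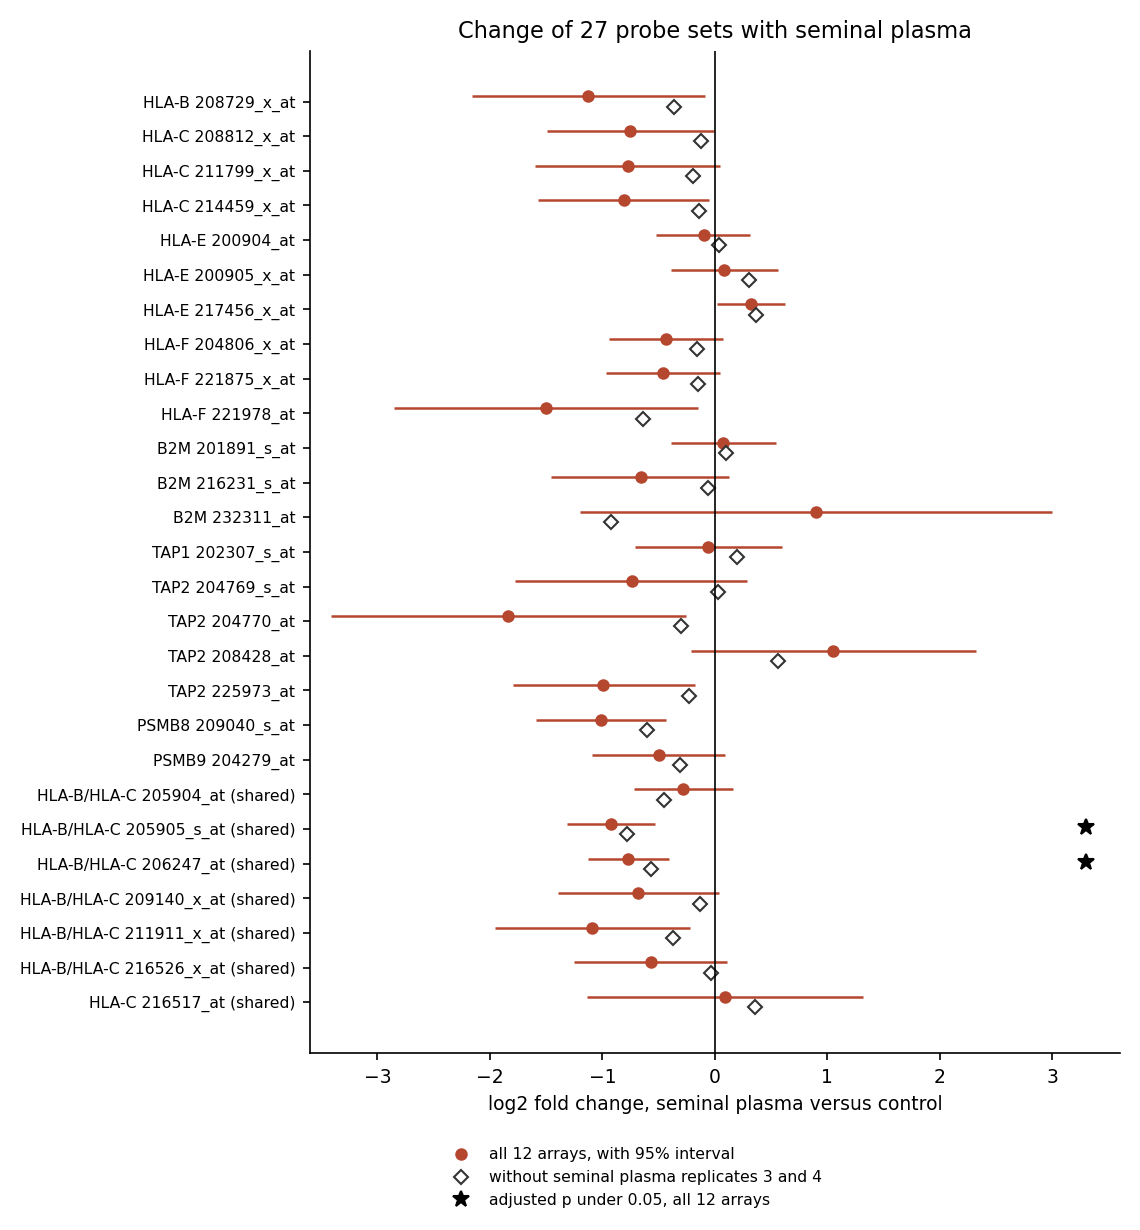
Log2 fold change of the 27 probe sets, seminal plasma versus control (x axis). Filled points with 95% intervals use all 12 arrays, open diamonds leave out seminal plasma replicates 3 and 4, and stars mark the 2 shared probe sets with an adjusted p under 0.05. The median moves to -0.15 without those 2 replicates, against -0.66 with them.

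The downward lean was not equal over the seminal plasma arrays. Taking each array's median difference from the control mean over the 20 single-symbol probe sets, seminal plasma replicates 1 to 4 gave -0.48, 0.19, -1.29 and -0.81 on the log2 scale. TGFB3 replicates gave -0.12, -0.28, -0.07 and 0.10, and controls -0.06, 0.13, 0.03 and -0.06. Replicate 2 of seminal plasma thus had a median near those of the controls, of which the highest was 0.13. It had 5 of its 20 probe sets below the control mean, while replicate 3 had 17 of 20 below. The same medians over all probe sets were 0.00, 0.00, 0.43 and 0.14 in seminal plasma replicates 1 to 4. Over the 28180 probe sets with a mean signal of 100 or more they were -0.02, 0.01, 0.08 and -0.01. Without seminal plasma replicate 2, 14 of 27 probe sets were called lower against control, at a background of 16.3% called and 6.94% called lower. Without replicates 1 and 2, a choice made after seeing the data, 17 were called lower and 1 higher. Over the array 30.3% were then called, 11.6% lower and 18.7% higher. The part of the arrays' differing overall signal in these counts was not tested.

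**Figure D2:**
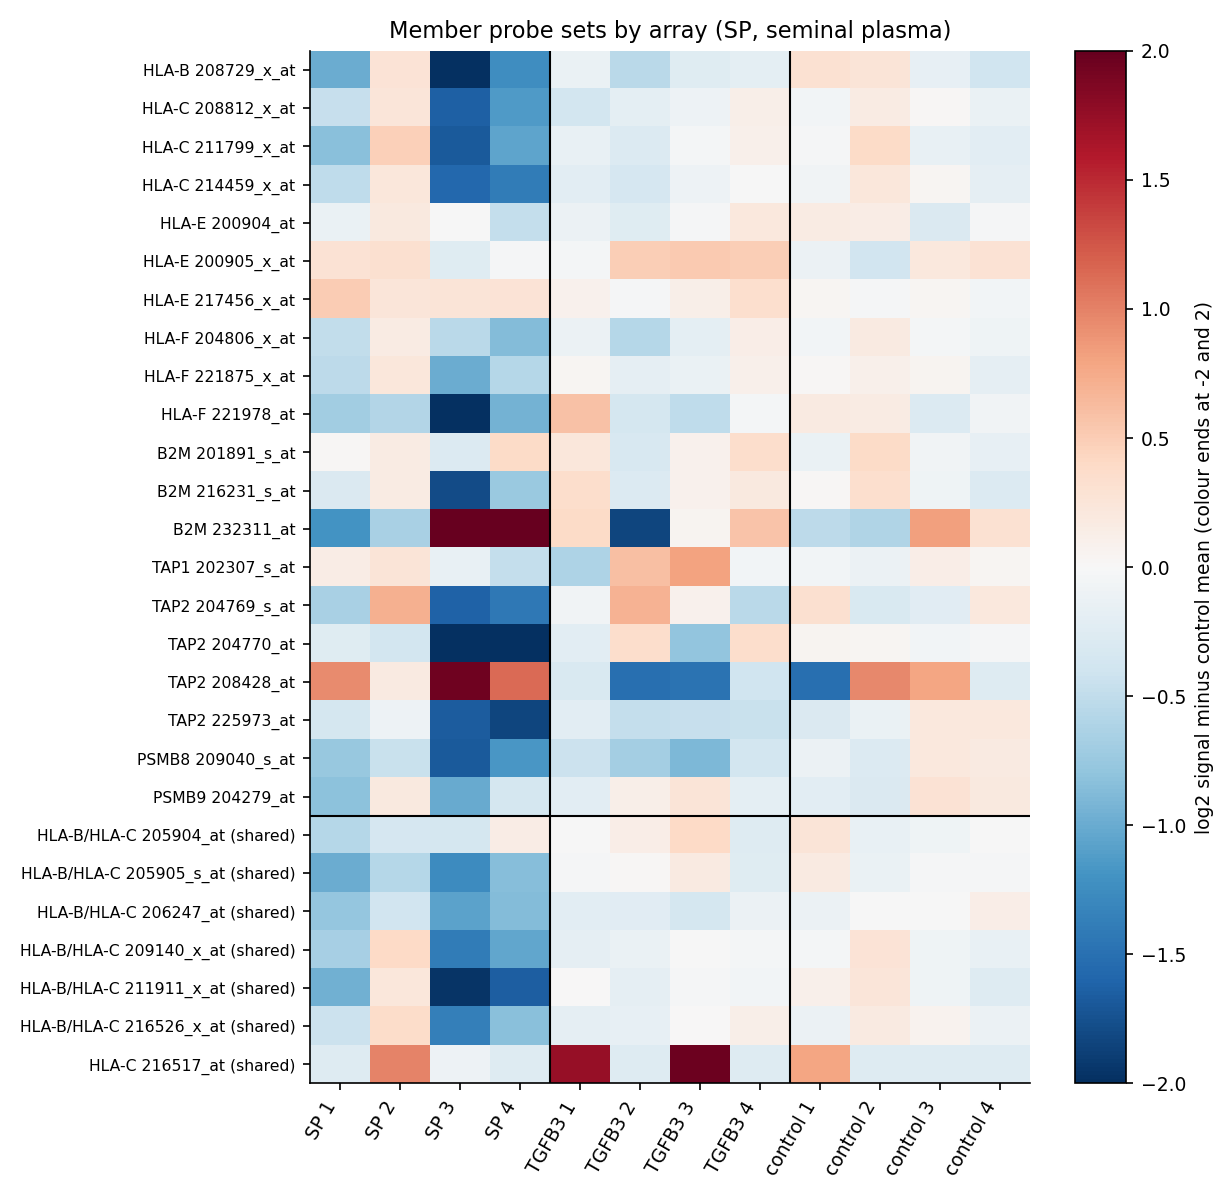
Difference of each array from the control mean, log2 scale, for the 27 probe sets (rows, the 7 shared ones under the line) on the 12 arrays (columns, SP for seminal plasma). Seminal plasma replicates 3 and 4 hold most of the deep blue, with array medians of -1.29 and -0.81 over the 20 single-symbol probe sets, and replicate 2 (0.19) looks like the controls.

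The classical heavy chains HLA-B and HLA-C, which present peptides to CD8 T cells and bind inhibitory receptors of natural killer cells, varied widely between seminal plasma replicates. HLA-B (208729_x_at) had signals of 2998, 7188, 1019.8 and 2524 with seminal plasma, 5460.3, 4089, 5051 and 5215 with TGFB3, and 7356, 7124, 5338 and 4528 in control. Replicates 1, 3 and 4 of seminal plasma lay below every control, and replicate 2 lay inside the control range, so the groups overlap. The log2 difference from control was -1.13 ± 0.47 (SE, 95% interval -2.16 to -0.09) and was not called (limma adjusted p 0.171). It was -0.36 without seminal plasma replicates 3 and 4 (limma adjusted p 0.691).

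On all 3 HLA-C probe sets the seminal plasma arrays ran in the same order as on HLA-B, with replicate 2 highest, then 1, 4 and 3. On 214459_x_at the signals were 10204, 16960.3, 4844 and 5478 with seminal plasma, 12533, 11399, 13477 and 14421 with TGFB3, and 13725, 16873, 14845 and 12693 in control. Seminal plasma replicate 2 was the highest of all 12 arrays and replicate 3 the lowest. The 3 HLA-C probe sets differed from control by -0.75, -0.77 and -0.81 on the log2 scale, with limma adjusted p of 0.198, 0.227 and 0.177, and by -0.12, -0.19 and -0.14 without replicates 3 and 4.

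HLA-E, which carries leader peptides of other class I chains to the NKG2A receptor of natural killer cells, did not follow that order. Its probe set 217456_x_at had signals of 2579.7, 2145, 2189 and 2199 with seminal plasma, 1943, 1797, 1979 and 2301 with TGFB3, and 1863, 1783, 1881 and 1763 in control. All 4 seminal plasma values lay above all 4 controls, which holds for 7.96% of all probe sets. The log2 difference was 0.32 ± 0.14 (SE) and was not called (limma adjusted p 0.178). It was 0.37 without seminal plasma replicates 3 and 4, and -0.07 when each array was centred on its median. The other HLA-E probe sets, 200904_at and 200905_x_at, differed from control by -0.10 and 0.08 (limma adjusted p 0.757 and 0.834), or 0.04 and 0.30 without replicates 3 and 4, so the 3 did not move alike.

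HLA-F, a non-classical heavy chain with restricted surface expression, has 3 probe sets. On 221875_x_at the signals were 3705, 6269, 2692 and 3606 with seminal plasma, 5489, 4699, 4864 and 5709 with TGFB3, and 5403, 5719, 5546 and 4738 in control. Again replicate 2 was the seminal plasma array that reached the controls, and the log2 difference was -0.46 ± 0.23 (SE, limma adjusted p 0.24), and -0.15 without replicates 3 and 4. The probe set 204806_x_at differed by -0.43 (limma adjusted p 0.266), and by -0.16 without them. The third, 221978_at, had signals of 134, 144, 11.5 and 112 with seminal plasma, 325, 169.7, 152 and 209.8 with TGFB3, and 246, 242, 179 and 206 in control. All 4 seminal plasma values of 221978_at lay below all controls, as for 6.17% of all probe sets, and below all TGFB3 values, with a log2 difference from control of -1.50 ± 0.61 (SE, limma adjusted p 0.165) and of -0.64 without replicates 3 and 4.

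The 2 probe sets called with seminal plasma belong to the shared group. Probe set 205905_s_at, listed for HLA-B, HLA-C, MICA and MICB, had signals of 835, 1122, 701 and 924 with seminal plasma, 1639.6, 1691, 1882 and 1408 with TGFB3, and 1897, 1515, 1646 and 1637 in control. All seminal plasma arrays were lower than all others, replicate 2 included. Of all probe sets, 6.17% lay below all controls with seminal plasma, and 4.65% below all TGFB3 arrays. Probe set 205905_s_at fell by 0.92 ± 0.18 on the log2 scale against control (SE, 95% interval -1.31 to -0.53, limma adjusted p 0.0276). Without seminal plasma replicates 3 and 4 the difference was -0.78 and was no longer called (limma adjusted p 0.0793). It was called in 7 of the 12 fits that leave out a single array, with limma adjusted p of 0.0559 to 0.0785 where a control replicate or seminal plasma replicate 4 was the one left out. Its limma adjusted p lay between 0.00367 and 0.0952 over all alternatives.

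Probe set 206247_at, with the same gene list, had signals of 2309, 3036, 1883 and 2157 with seminal plasma, 3387, 3354, 3083 and 3629.8 with TGFB3, and 3635, 3933, 3902 and 4319.5 in control. The 3 groups did not overlap, with seminal plasma lowest, TGFB3 between and control highest. Taken pair by pair, that holds for 6.17% (seminal plasma below control), 4.27% (TGFB3 below control) and 4.65% (seminal plasma below TGFB3) of all probe sets. Probe set 206247_at fell by 0.77 ± 0.17 with seminal plasma against control (SE, 95% interval -1.13 to -0.41, limma adjusted p 0.0396). The difference was -0.57 without seminal plasma replicates 3 and 4 (limma adjusted p 0.103), and the call held in 1 of the 12 fits that leave out a single array, the one without seminal plasma replicate 2 (limma adjusted p 0.00594), against 0.0527 to 0.109 in the others. MICA and MICB, the other genes on both lists, encode stress-induced ligands of the NKG2D receptor on natural killer and T cells.

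The remaining shared probe sets were not called. On 211911_x_at the signals were 4691, 10779, 2349.8 and 2927 with seminal plasma, 9268, 8135, 9004 and 8844 with TGFB3, and 9902, 10852, 8650.0 and 7638 in control, with a log2 difference from control of -1.09 ± 0.39 (SE, limma adjusted p 0.124), and of -0.37 without replicates 3 and 4. Here seminal plasma replicate 2 sat among the controls, unlike on the called pair. The other 2 shared HLA-B and HLA-C probe sets ending in _x_at, 209140_x_at and 216526_x_at, differed by -0.68 and -0.57, but by -0.13 and -0.03 without replicates 3 and 4. Probe set 205904_at differed by -0.28 (limma adjusted p 0.408) and by -0.45 without them, and 216517_at lay under 16 on 7 of the 12 arrays.

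The _x_at suffix marks probe sets whose probes can match other transcripts too. The 9 such probe sets for HLA-B, HLA-C and HLA-F varied together, with Pearson correlations of 0.75 to 0.99 over 36 pairs and 12 arrays. Over the 10 arrays without seminal plasma replicates 3 and 4 these were 0.71 to 0.98. The HLA-E probe sets with this suffix were not among the 9 and did not vary with them. On 12 arrays 200905_x_at correlated with the 9 at 0.03 to 0.39, and 217456_x_at at -0.52 to -0.31. Between the called pair and those 9 the correlations were 0.52 to 0.87 over 18 pairs on 12 arrays and 0.13 to 0.59 on 10. The pair correlated with each other at 0.87 on 12 arrays and 0.71 on 10, and 205905_s_at with the uncalled 205904_at at 0.68 and 0.92. These are descriptions of probe sets read from the same arrays, some of which may read the same transcripts.

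**Figure D3:**
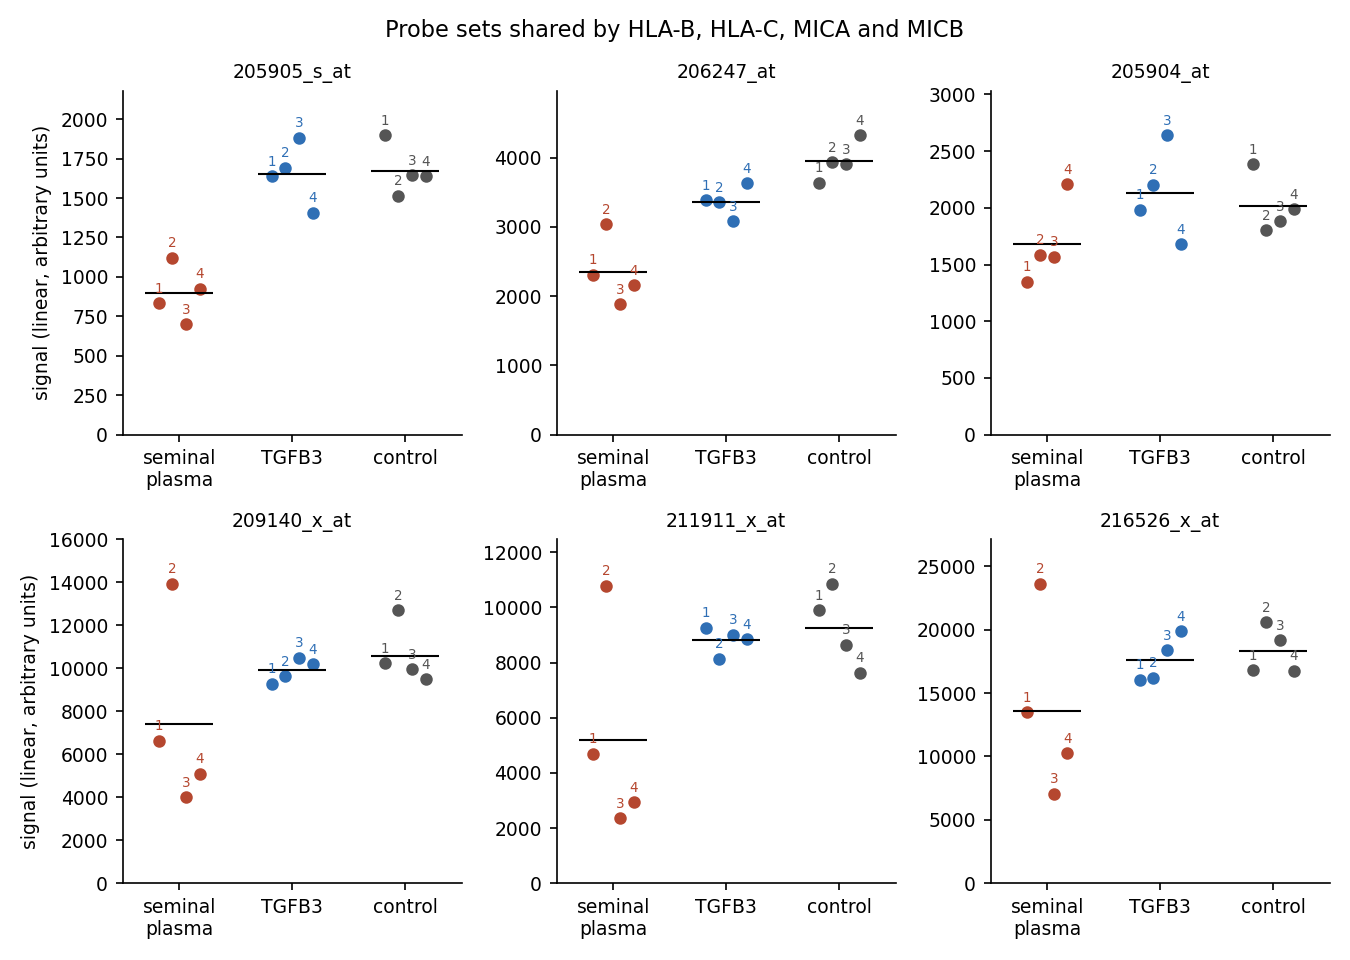
Signal (y axis, linear, starting at 0) of the 6 shared HLA-B and HLA-C probe sets by group (x axis), with replicate numbers on the points and group means as lines. On 205905_s_at and 206247_at every seminal plasma array lies below every control, whereas on 211911_x_at and 209140_x_at seminal plasma replicate 2 (10779 and 13915) reaches the controls.

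B2M, the light chain that every class I heavy chain needs to reach the surface, was not called on any of its 3 probe sets, which disagreed among themselves. On 201891_s_at the signals were 29791, 32723, 24001 and 37913 with seminal plasma, 34123, 23393, 31076 and 37354 with TGFB3, and 26452, 37833, 27881 and 25895 in control. The groups overlap fully, with a log2 difference from control of 0.07 ± 0.21 (SE, 95% interval -0.39 to 0.54, limma adjusted p 0.854), which was 0.10 without replicates 3 and 4 and -0.45 after quantile normalization. On 216231_s_at the signals were 24395, 33479, 8675 and 17817 with seminal plasma, 38159.5, 24609, 31767 and 34129.8 with TGFB3, and 30333, 37806, 28131 and 24556 in control.

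Replicate 3 of seminal plasma was thus the lowest of 12 on 216231_s_at by a wide margin, but within the range of the others on 201891_s_at. The difference on 216231_s_at was -0.66 ± 0.36 (SE, limma adjusted p 0.277) and -0.06 without replicates 3 and 4. The third B2M probe set, 232311_at, was dim and ran the other way, with 24.9, 36.2, 536 and 265 with seminal plasma, 74.2, 15.2, 59 and 84.5 with TGFB3, and 39.6, 37.5, 101 and 70.6 in control. Its difference was 0.90 ± 0.95 (SE, limma adjusted p 0.574) with all arrays and -0.92 without replicates 3 and 4.

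TAP1 and TAP2 form the transporter that moves peptides into the endoplasmic reticulum. TAP1 (202307_s_at) had signals of 1228, 1323, 995 and 793 with seminal plasma, 721, 1684, 1924 and 1065 with TGFB3, and 1065, 1020.1, 1215 and 1133 in control. Its difference with seminal plasma was -0.06 ± 0.30 (SE, 95% interval -0.71 to 0.60, limma adjusted p 0.929), an interval that leaves room for a change of either sign, and it was 0.20 without replicates 3 and 4. The TGFB3 arrays spread the most, from 721 to 1924.

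TAP2 has 4 probe sets, none called. On 225973_at the signals were 1219.8, 1454, 493 and 438 with seminal plasma, 1347, 1117, 1138 and 1139 with TGFB3, and 1282, 1421, 1799.8 and 1801 in control, for a log2 difference of -0.99 ± 0.37 with seminal plasma (SE, limma adjusted p 0.132). Without seminal plasma replicates 3 and 4 it was -0.23. On 204770_at the signals were 198, 182, 30.4 and 16.9 with seminal plasma, 201, 299, 135 and 297 with TGFB3, and 242, 241, 224 and 229 in control.

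The 204770_at values with seminal plasma all lay below the tightly grouped controls, as for 6.17% of all probe sets. Replicates 3 and 4 still carried most of its log2 difference of -1.84 ± 0.71 (SE, limma adjusted p 0.148), which was -0.30 without them. Probe set 204769_s_at differed by -0.74 (0.03 without them), and the dim 208428_at by 1.05 (0.56 without them), with limma adjusted p of 0.342 and 0.277. The TAP2 probe sets therefore gave 3 differences below 0 and 1 above.

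**Figure D4:**
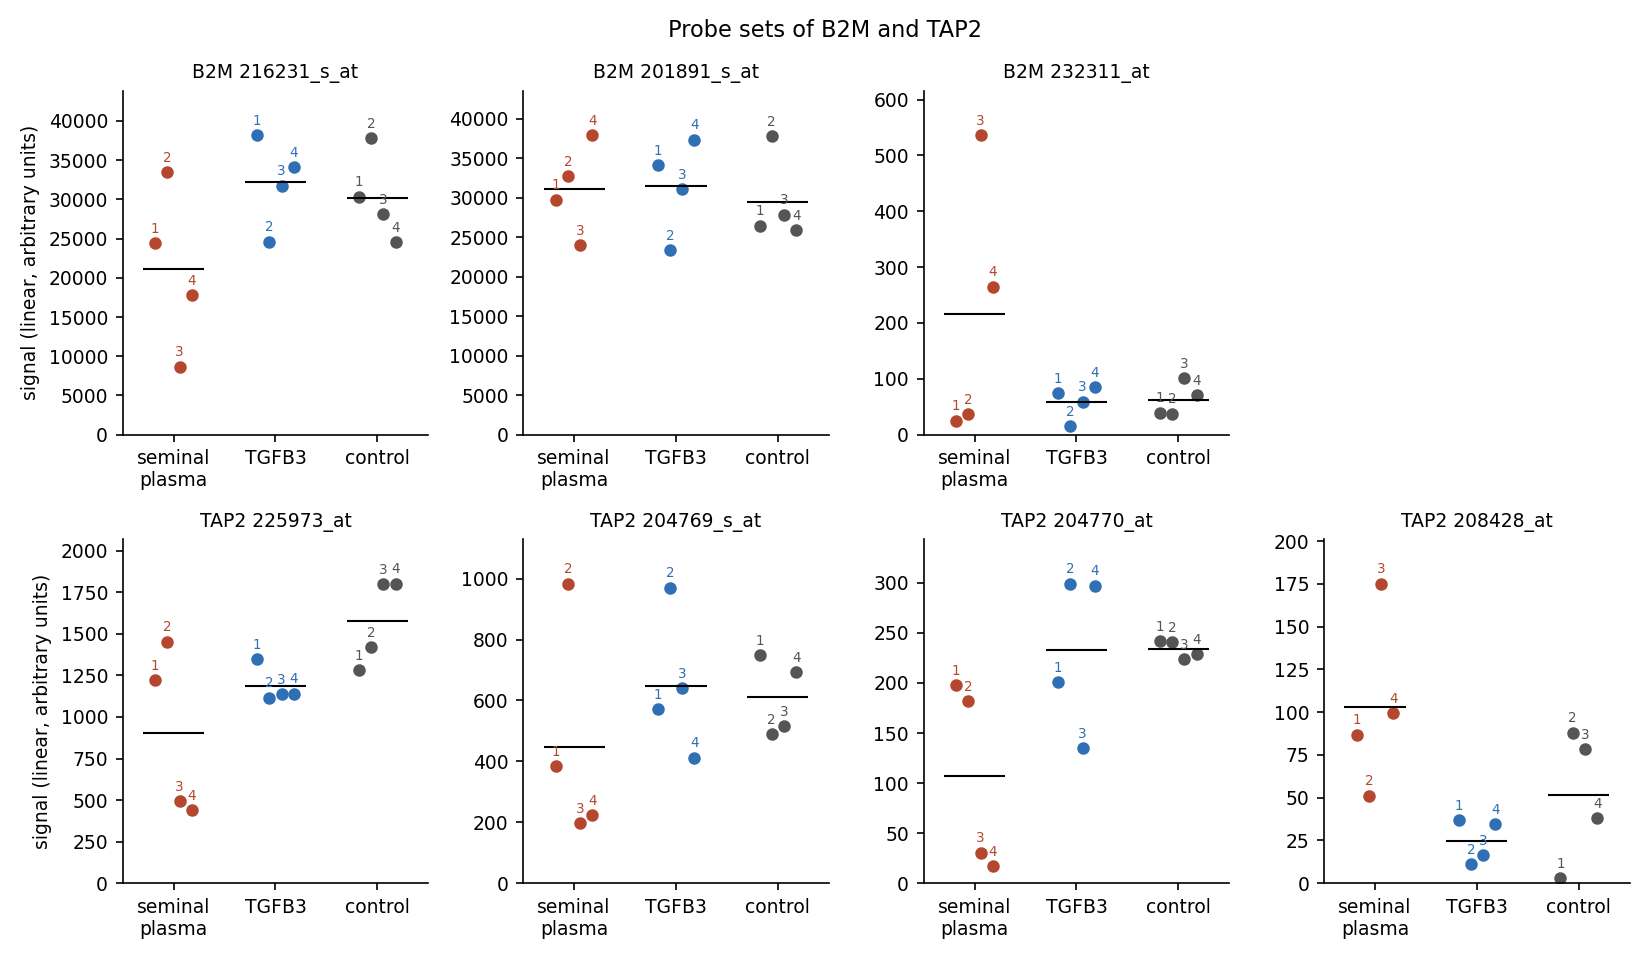
Signal (y axis, linear, starting at 0) of the 3 B2M and 4 TAP2 probe sets by group (x axis), with replicate numbers on the points and group means as lines. Seminal plasma replicates 3 and 4 lie low on TAP2 225973_at (493 and 438) and 204770_at (30.4 and 16.9), but high on the dim B2M 232311_at (536 and 265).

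PSMB8 and PSMB9 replace constitutive catalytic subunits when the proteasome is converted to the immunoproteasome. PSMB8 (209040_s_at) had signals of 1246, 1543, 652 and 941 with seminal plasma, 1556, 1304, 1123 and 1627 with TGFB3, and 1935, 1744, 2421 and 2373 in control. All 8 treated arrays lay below all 4 controls, while seminal plasma and TGFB3 overlapped. Of all probe sets, 6.17% lay below all controls with seminal plasma and 4.27% with TGFB3, and the share with both was not counted. The log2 difference was -1.01 ± 0.26 with seminal plasma (SE, 95% interval -1.59 to -0.43, limma adjusted p 0.0623) and -0.60 ± 0.26 with TGFB3 (SE, 95% interval -1.18 to -0.02, limma adjusted p 0.64), so neither was called. Without seminal plasma replicates 3 and 4 the seminal plasma difference was also -0.60 (limma adjusted p 0.228). The seminal plasma difference was called in 1 of the 12 fits that leave out a single array, the one without seminal plasma replicate 2. In that fit 16.3% of all probe sets were called, 6.94% lower. Over all alternatives the limma adjusted p of the seminal plasma difference lay between 0.00308 and 0.228. With limma's array weights the TGFB3 difference was called (limma adjusted p 0.0474), a setting under which 3.24% of all probe sets were called, against 0.19% without weights. Both treatments are set against the same 4 control arrays.

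PSMB9 (204279_at) had signals of 1350.1, 2715, 1188 and 1857 with seminal plasma, 2052, 2594, 2859 and 2078 with TGFB3, and 2064, 1958, 2899 and 2739 in control. Seminal plasma replicates 1, 3 and 4 lay below all controls and replicate 2 among them, for a log2 difference of -0.50 ± 0.27 (SE, limma adjusted p 0.273), or -0.31 without replicates 3 and 4. With TGFB3 it was -0.01 (95% interval -0.60 to 0.59). PSMB8 and PSMB9 thus differed in where the TGFB3 arrays lay, without a test of that difference.

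**Figure D5:**
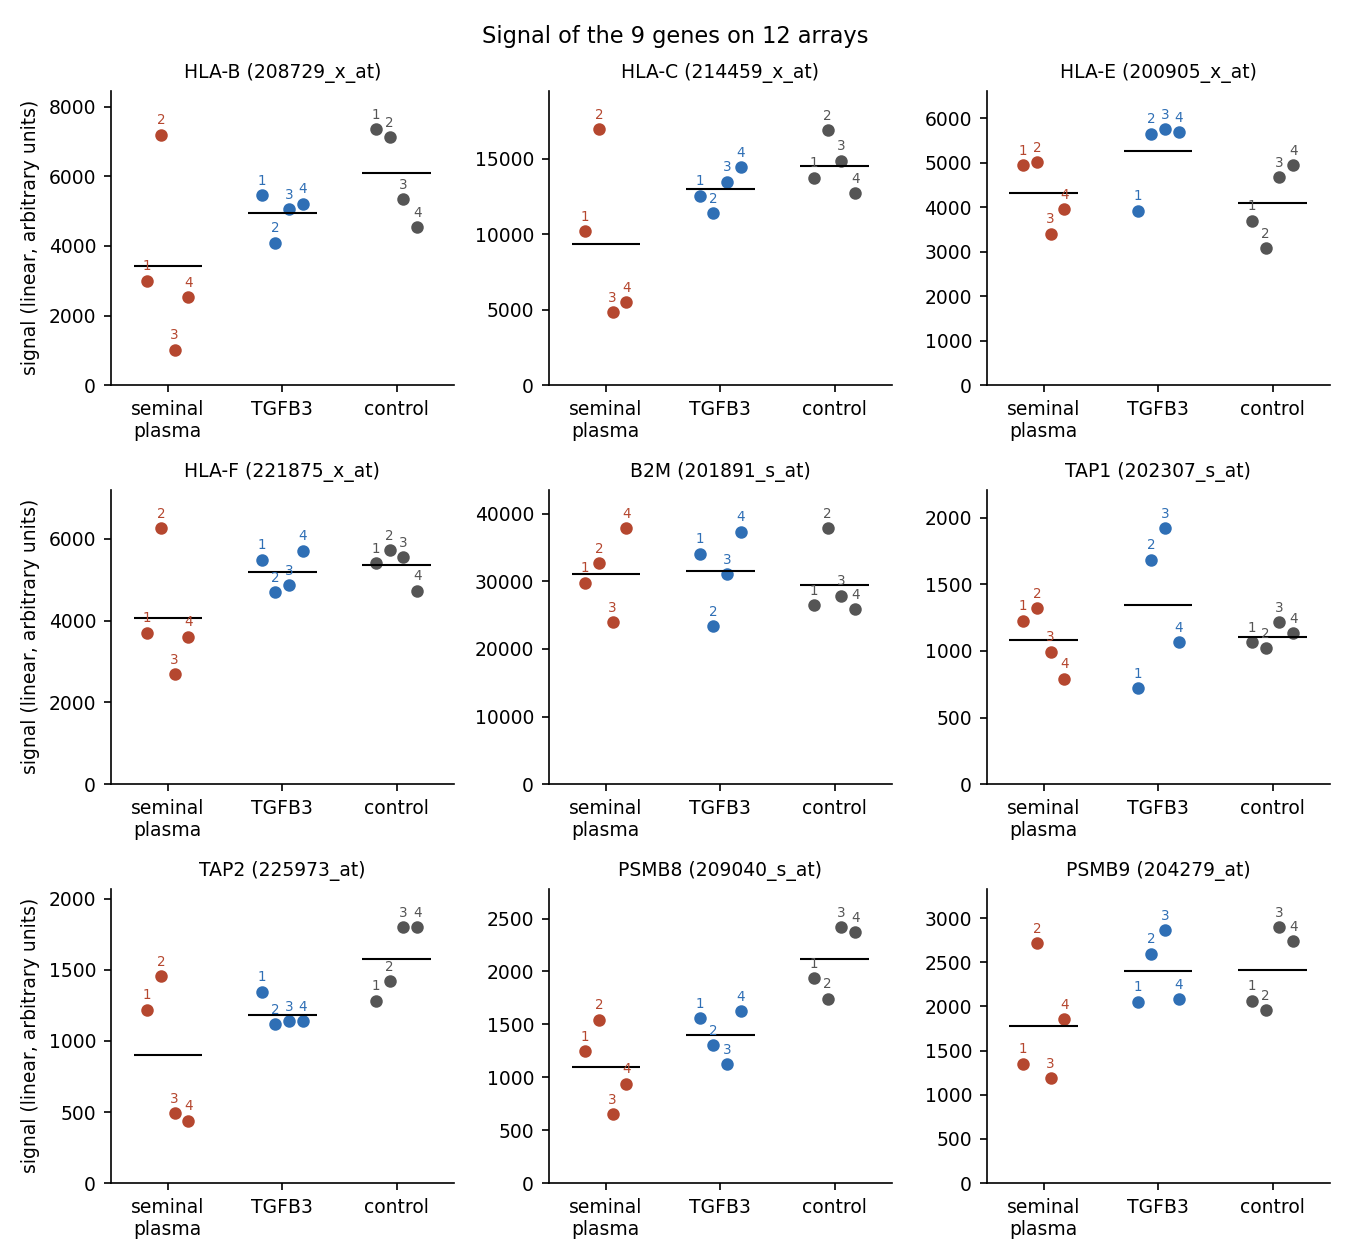
Signal (y axis, linear, starting at 0) of the 9 genes by group (x axis), using for each the single-symbol probe set with the highest summed group means. Points carry replicate numbers and lines are group means. PSMB8 is the panel where all 8 treated arrays (652 to 1627) lie below all controls (1744 to 2421). In the HLA-B, HLA-C and HLA-F panels seminal plasma replicate 2 stands among or above the controls.

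With TGFB3 against control, 0 of the 27 class I probe sets were called (limma), where 0.19% of all probe sets were called in either direction, and at an unadjusted p under 0.05 there was 1 lower, PSMB8, where 3.48% of all were lower. The median log2 difference was -0.06, against 0.00 for all probe sets. Of the 27, 19 were below 0, against 25817 of all 54613. The groups did not overlap for PSMB8 and 206247_at, both lower, as for 4.27% of all probe sets. The 206247_at difference was -0.23 ± 0.17 (SE, limma adjusted p 0.893), and that of 205905_s_at was -0.02 ± 0.18 (SE, 95% interval -0.41 to 0.37). HLA-E 200905_x_at was higher on average, at 5255 ± 890.3 with TGFB3 and 4102 ± 863 in control (SD, n = 4 arrays each), but with a log2 difference of 0.36 ± 0.22 it was not called (SE, limma adjusted p 0.814). These SEs use the spread of all 12 arrays, seminal plasma replicates 3 and 4 included. With those replicates left out, 0 of 27 were called, where 0.542% of all probe sets were. The SE then went from 0.26 to 0.17 for PSMB8 (limma adjusted p 0.185). For TAP2 225973_at, at a difference of -0.40, it went from 0.37 to 0.14 (limma adjusted p 0.283). It rose on the dim 208428_at and 216517_at.

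Seminal plasma set directly against TGFB3 gave 1 call lower and 0 higher of 27, where 1.73% of all probe sets were called, 0.78% lower and 0.95% higher. The call was 205905_s_at again, lower by a log2 difference of -0.90 ± 0.18 (SE, limma adjusted p 0.0371), or -0.77 without seminal plasma replicates 3 and 4 (limma adjusted p 0.094). It was called in 2 of the 12 fits that leave out a single array, those without seminal plasma replicate 1 or 2, against a limma adjusted p of 0.0525 to 0.113 in the others. The groups did not overlap for 3 lower probe sets (205905_s_at, 206247_at and HLA-F 221978_at) and 1 higher, the dim TAP2 208428_at, against 4.65% and 5.89% of all. The median difference was -0.54 over the 27, against 0.17 over all probe sets, and -0.06 without replicates 3 and 4, when 0 of 27 were called against 0.337% of all called lower. This contrast shares its seminal plasma arrays with the comparison against control.

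The authors' deposited table carries a call for 2 of the 27 probe sets with seminal plasma, both lower: HLA-F 221978_at with a fold of -2.17 (p 0.0006) and TAP2 204770_at with -2.19 (p 0.0084). The authors' deposited table carries that call for 7.24% of all probe sets. Every called fold was at least 2.00 in size, and every called deposited p was at most 0.0499. B2M 232311_at had a deposited fold of 3.47 without a call. The deposited folds follow ratios of mean linear signals. The log2 means used above give sizes of 2.82 for HLA-F 221978_at and 3.57 for TAP2 204770_at. The authors' deposited table gave 205905_s_at and 206247_at folds of -1.87 and -1.68 and PSMB8 -1.93 (p 0.0001), without a call. For TGFB3 the authors' deposited table called 0 of 27, against 1.62% of all probe sets, and gave PSMB8 a fold of -1.51 (p 0.0004).

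The rest of the pathway was read from lists of known genes, with the brightest probe set of each gene. Over all 19682 genes, 3.25% were called, 1.87% higher and 1.38% lower, with seminal plasma against control. Of 11 genes for peptide loading and class I assembly, 0 were called in any of the 3 comparisons. ERAP2, which trims peptides in the endoplasmic reticulum, had 439.9, 329, 435 and 488 with seminal plasma, 396, 556, 491 and 819 with TGFB3, and 734, 524, 1506 and 1779 in control. All seminal plasma values of ERAP2 lay below all controls, as for 6.17% of all probe sets. The ERAP2 difference was -1.27 ± 0.38 (SE, limma adjusted p 0.0853), or -1.40 without replicates 3 and 4 (limma adjusted p 0.257). TAPBP, or tapasin, which bridges TAP and the empty class I molecule, differed by -0.74 (limma adjusted p 0.135), or -0.40 without them.

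Of 19 measured proteasome subunits and activators, 0 were called with seminal plasma against control, with a median log2 difference of 0.08 (0.01 without replicates 3 and 4). The 2 with the smallest p were the constitutive core subunits PSMB1 and PSMA7, at 0.88 and 0.77 (limma adjusted p 0.0617 and 0.0842), or 0.52 and 0.38 without replicates 3 and 4. PSMB10, the other inducible catalytic subunit, differed by -0.35 with seminal plasma and -0.47 with TGFB3 (limma adjusted p 0.448 and 0.815), the first being -0.58 without replicates 3 and 4. Of the same 19 genes 0 were called with TGFB3, where 0.295% of all genes were called.

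Of 23 regulators of class I transcription and interferon signalling, 0 were called against control with either treatment, and the medians were -0.42 with seminal plasma and -0.06 with TGFB3, against 0.11 and -0.01 for all genes. Without replicates 3 and 4 of seminal plasma the median with seminal plasma was -0.24, against 0.01 for all genes. IRF2, an interferon regulatory factor, differed by -1.05 with seminal plasma (limma adjusted p 0.0676), or -0.69 without them.

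SOCS1, an inhibitor of cytokine receptor signalling, had 566, 437, 255 and 291 with seminal plasma, 377, 511, 485 and 399 with TGFB3, and 220.3, 237, 212 and 207 in control. All treated arrays were above all controls. Of all 54613 probe sets, 4346 lay above all controls with seminal plasma and 2285 with TGFB3, each treatment counted alone. The SOCS1 differences of 0.75 and 1.01 were not called (limma adjusted p 0.0997 and 0.202). With replicates 3 and 4 of seminal plasma left out, SOCS1 was called higher with both treatments, at differences of 1.18 and 1.01. The limma adjusted p was 0.0226 with seminal plasma and 0.024 with TGFB3. In that fit 131 of all 19682 genes were called higher with seminal plasma, against 368 with all arrays. With TGFB3 104 genes were called higher in that fit, against 50 with all arrays. JAK1, a kinase of interferon receptors, was the only one of the 23 called in the direct contrast, with 2449.5, 2541, 1156 and 781 with seminal plasma and 3807, 6077, 5772 and 4751 with TGFB3. Control arrays had 2678, 2531, 2553 and 2588, all below the TGFB3 arrays. The JAK1 difference of TGFB3 from control was 0.96 ± 0.35 (SE, limma adjusted p 0.505). With replicates 3 and 4 of seminal plasma left out of the fit, JAK1 was called higher with TGFB3 (limma adjusted p 0.0391), as were 104 of 19682 genes. The JAK1 difference of seminal plasma from control was -0.75 (limma adjusted p 0.216), or -0.05 without those replicates. The difference of seminal plasma from TGFB3 was -1.70 ± 0.35 (SE, limma adjusted p 0.0436), in a contrast where 0.752% of all genes were called lower, and -1.01 without replicates 3 and 4 (limma adjusted p 0.0576).

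Of 10 genes of HLA class II, which present to CD4 T cells, 0 were called in any comparison, and their summed signal was 802 to 1822 with seminal plasma, 834 to 1365 with TGFB3 and 1101 to 1345 in control. Of 10 measured class I-like molecules and natural killer cell ligands, 0 were called in any comparison. CD1D, which presents lipids, differed by -1.94 with seminal plasma (limma adjusted p 0.109) and HFE, a class I-like regulator of iron uptake, by -0.49 (limma adjusted p 0.118). Without replicates 3 and 4 these were -1.12 and -0.57. MICA, MICB, RAET1G and RAET1L were not measured on a probe set of their own here. Summed leukocyte marker signals were 1182 to 2197 with seminal plasma, 1525 to 1679.7 with TGFB3 and 1503 to 1988 in control, and their part in the class I values was not tested.

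The list members with the smallest p were also read for the other comparisons, and none of those named next was called. With TGFB3 against control they were TAPBPL and ERAP2 among the loading genes (log2 differences of -0.35 and -0.89), PSMB10 and PSMB5 in the proteasome (-0.47 and -0.31), SOCS1 and CREB1 among the regulators (1.01 and 0.77), HLA-DPA1 and HLA-DMB in class II (-1.12 and 0.50), and HFE and RAET1E among the class I-like genes (-0.47 and -1.23). TAPBPL is a relative of tapasin that edits the bound peptides, and CREB1 binds the cyclic AMP element. The limma adjusted p of these lay between 0.202 and 0.903. With seminal plasma against TGFB3 they were BCAP31 and UGGT1 (0.66 and 0.60), which handle class I chains on their way through the endoplasmic reticulum, the proteasome maturation factor POMP and PSMB1 (0.61 and 0.73), HLA-DRB1 and CIITA (0.78 and 0.99), and AZGP1 and CD1D (1.33 and -1.59). Their limma adjusted p lay between 0.0971 and 0.308, and without replicates 3 and 4 their differences lay between -0.76 (CD1D) and 0.85 (AZGP1), with CIITA at 0.09. With seminal plasma against control the class II pair was CIITA, the class II transactivator (1.67, limma adjusted p 0.1), and HLA-DQB1 (-1.17, limma adjusted p 0.233), which without replicates 3 and 4 were 0.77 and 0.07.

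The 8 genes outside the members whose log2 signals were most like the mean profile of the 9 class I genes were LOC552889, SDF4, CANX, PRRC2B, TMCO6, DAP, AK3 and PDIA6, out of 19587 compared. Their Pearson correlations over 12 arrays were between 0.973 and 0.984, and between 0.78 and 0.90 over the 10 arrays without seminal plasma replicates 3 and 4. CANX, or calnexin, a chaperone of new class I heavy chains that was also on the peptide loading list, had 9002, 11559, 5168 and 6688 with seminal plasma, 10787, 10082, 10159.5 and 11127 with TGFB3, and 10641, 11003, 11044 and 10533 in control. As in the class I profile, seminal plasma replicates 3 and 4 were lowest and replicate 2 was among the highest. The points share their arrays, so these likenesses describe the 12 arrays only.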

How the data were processed

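Per the labels' protocols and the series' design text, RNA of 12 Ect1 cultures was hybridised to Affymetrix U133 Plus 2.0 arrays. The authors deposited 1 linear intensity per probe set and array, and, per the file headers, a signed fold against control (used as a score), a p-value and a call for each treatment. Per the submitters' processing notes, GCOS 1.4, MAS5, R 2.6.1, Partek and RMA were used, with no role given. The linear scale was read from the values: the mean trimmed by 2% at each end was 493.2 to 498.3 on every array. The labelling is described differently in the labels and in the design text. Columns of other samples numbered 0.

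Intensities under 16 were set to 16, log2 was taken and limma 3.58.1 (R 4.3.3; lmFit, eBayes, 9 residual degrees of freedom) was fitted to all 54613 probe sets without further scaling, with Benjamini-Hochberg adjustment. The call is an adjusted p under 0.05. The shared spread gives a probe set the same SE in every contrast. The script was tested on simulated data. For lists, each gene was represented by its probe set with the highest mean. All members were named, and from each list up to 4 called genes, or the 2 with the smallest p, per contrast, except that 1 result among the regulators is not reported here; the values of PSMB10 and SOCS1 with seminal plasma were chosen after they were seen, as was leaving out seminal plasma replicates 1 and 2. The members and lists were chosen with earlier results of these data known. Promoter sequences come from RefSeq (GRCh38.p14). Alternatives covered scaling, the floor, dim probe sets, trend, array weights, the arrays fitted, the replicate block and left-out arrays. Same-numbered replicates correlated between -0.09 and 0.15 in their deviations from group means, so the numbers are not shown to pair arrays. Python 3.11.15 and matplotlib 3.10.9 made tables and figures.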

Additional observations from a re-analysis of the deposited data

Results flagged for a closer look

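In each of 81 groups of 4 arrays (27 probe sets, 3 treatments) the highest and lowest signal were set against Dixon's critical value for an outlier, and 6 were flagged, where chance flags about 1 in 20 groups. HLA-F 221978_at was flagged for the low signal of 11.5 in seminal plasma replicate 3, one of the 2 arrays that stood apart. HLA-E 217456_x_at was flagged for the high signal of 2579.7 in seminal plasma replicate 1, and HLA-E 200905_x_at for the low signal of 3922 in TGFB3 replicate 1. TAP2 225973_at was flagged for the high signal of 1347 in TGFB3 replicate 1. The dim shared probe set 216517_at was flagged in seminal plasma replicate 2 (38) and in control replicate 1 (33). Of its arrays, 3 controls and 2 of seminal plasma lay under 16 and were tied at the floor, so these flags rest on the floor.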

How the results depend on the processing

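The count of called probe sets among the 27 depended on the processing. With seminal plasma against control it was 2, and 0 under median centring, with a floor of 1, in a fit of only the 8 arrays compared, with the replicate block and without seminal plasma replicates 3 and 4 together; it was 1 with log2(value + 16), and 3 with dim probe sets left out or with intensity trend and robust fitting. The share called over all probe sets moved too: 2.94% as reported, 1.44% under median centring, 1.34% with a floor of 1, 0.361% with the 8 arrays, 0.562% with the block, 0.987% without replicates 3 and 4, 2.82% with log2(value + 16), 13.8% without dim probe sets and 6.71% with trend. Leaving out single arrays gave 0 to 14, the 14 when seminal plasma replicate 2 was left out (16.3% of all called). The count was 0 when seminal plasma replicate 4 or any one control was left out, where 0.494% to 0.903% of all were called. Leaving out seminal plasma replicates 1 and 2 together, added after seeing the data, gave 18 (30.3% of all). For seminal plasma against TGFB3 the count was 1, where 1.73% of all were called as reported. It was 0 under median centring (0.676% of all), a floor of 1 (0.405%), log2(value + 16) (1.54%) and the 8 arrays (0.022%). It was also 0 with the replicate block (0.0861%) and without replicates 3 and 4 (0.721%). Single arrays left out gave 0 to 12, the 12 without seminal plasma replicate 2, where 12.9% of all were called. Leaving out replicates 1 and 2 gave 18 (28.3% of all). For TGFB3 against control it was 0, and 1 (PSMB8) with array weights, where 3.24% of all were called, against 0.19% as reported. The causes were not tested. HLA-E 217456_x_at turned to -0.07 under median centring and B2M 201891_s_at to -0.45 under quantile normalization. Counting any change of sign, however small, 20, 33 and 17 of 619 values in each comparison (seminal plasma against control, TGFB3 against control, seminal plasma against TGFB3) had another sign than the reported one; apart from the HLA-E and B2M values just given, none of these had an unadjusted limma p under 0.05 before or after, and they are not printed singly. Scaling also moved the median of all probe sets with seminal plasma against control, 0.20 as reported, to 0.01 (quantile) and -0.19 (median centring), with the members' median at -0.71 and -1.05, against -0.66 as reported. With 4 arrays a group, dim probe sets near the floor of 16 give no reliable fold.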
